A study of Homo sapiens with 8 samples.

Results

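The core spliceosome snRNP protein genes are 35 genes. They encode protein parts of the small nuclear ribonucleoproteins (snRNPs) of the major spliceosome, of U2AF and of the Prp19 complex, or proteins that act with them. All 35 are called snRNP genes here. They were taken as a list of gene symbols, not picked by how they moved, but with earlier results of these data known. All 35 were found among the 63677 genes of the deposited counts. The list holds 7 genes of the Sm ring, 3 of the U1 snRNP, 13 of the U2 snRNP and the U2AF factor, 10 of the U5 snRNP and the U4/U6.U5 tri-snRNP, and 2 of the Prp19 complex.

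The spliceosome removes introns from pre-mRNA. The U1 snRNP binds the 5′ splice site, U2AF and the U2 snRNP bind the 3′ end of the intron and the branch point, and the tri-snRNP then joins and is rearranged into the catalytic machine with help from the Prp19 complex. Each snRNP, other than that of U6, carries its snRNA inside a ring of Sm proteins, and plasma cells, which make large amounts of immunoglobulin mRNA, rely on it as other cells do.

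RNA was measured in JJN3 and H929, established multiple myeloma (MM) cell lines grown in RPMI-1640 with serum. THZ1, a covalent inhibitor of CDK7 (the kinase of the general transcription factor TFIIH), was given at 50 nM, and DMSO was the vehicle. All cells were harvested at 24 h. The 4 groups were JJN3 with DMSO, JJN3 with THZ1, H929 with DMSO and H929 with THZ1, with 2 libraries in each and 8 in all. The study compared the treatments within each line to find genes sensitive to CDK7 inhibition. The labels do not say whether the libraries of a group came from separate cultures, so p-values measure only the spread between these libraries, which may be technical. The total count per library was 17476443 to 19194371, and 3 counts corresponded to 0.156 to 0.172 CPM (counts scaled to the same library total).

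The libraries labelled H929 differed between DMSO and THZ1 in more than the treatment. Of the counts on light chain variable genes, lambda genes held 99.99% and 97.96% in the libraries labelled H929 DMSO but 0.203% and 0.194% in those labelled H929 THZ1. FGFR3, which the t(4;14) translocation activates in H929, was at 2.40 and 15.8 CPM in the DMSO libraries and at 766 and 733 CPM in the THZ1 libraries. MAF was at 960 and 904 CPM in the former and at 148 and 161 CPM in the latter. The 4 JJN3 libraries carried kappa light chains (lambda share 0.244% to 0.369%) and FGFR3 at no more than 0.104 CPM. Pearson correlations of log2 CPM between DMSO and THZ1 libraries were 0.966 to 0.974 in JJN3 and 0.802 to 0.824 under the H929 labels, close to the 0.7998 to 0.834 seen between the lines. Under the H929 labels the treatment and the source of the cells therefore cannot be told apart, and its values are given for the libraries as labelled. JJN3 is the comparison in which this was not seen. At least 8 of 9 plasma cell markers had more than 3 counts in every library.

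Every snRNP gene had counts in every library and passed the filter on low counts in all comparisons. Together they took 0.904% and 0.932% of all counts in JJN3 with DMSO, and 0.806% and 0.772% with THZ1. Under the H929 labels the share was 0.984% and 1.00% with DMSO, and 0.868% and 0.843% with THZ1. In both lines each THZ1 library was below each DMSO library. In bulk RNA, fewer cells that express a gene and less RNA of it per cell cannot be told apart, and a change common to all RNA does not show in these values, which are relative to the other genes of a library.

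Per kilobase of exon, the levels in JJN3 with DMSO ran from 11.3 ± 0.171 normalised CPM (SD, n = 2) for U2AF1, the small U2AF subunit, to 215 ± 21.0 for SNRPC, the U1 C protein. SNRPD2, an Sm protein, was next at 181 ± 16.9, a range of 1 SD that overlapped that of SNRPC. U2AF2, the large U2AF subunit, followed at 137 ± 1.70, within the spread of SF3B4 at 136 ± 6.18. The length counts the exons of all annotated transcripts merged, which lowers the value of genes with long alternative exons such as U2AF1. In the libraries labelled H929 THZ1 the highest level was that of SF3B4, a protein of the U2 snRNP, at 336 ± 4.89 normalised CPM per kilobase, and the lowest that of PRPF31 at 9.05 ± 1.26.

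With THZ1, JJN3 cells had less mRNA of 12 of the 35 snRNP genes and more of 1. A gene was called where edgeR's quasi-likelihood test gave a Benjamini-Hochberg adjusted p under 0.05 and the log2 fold change was beyond 0.5 in size. Of all 13984 genes tested in JJN3, 21.3% were called lower and 20.6% higher, against 34.3% and 2.86% of the snRNP genes. The median log2 fold change of the snRNP genes was -0.33, and that of all genes tested was -0.00036. The falls were moderate, from 1.43-fold for SF3B5 to 2.33-fold for SNRPD1. Both THZ1 libraries were below both DMSO libraries in normalised CPM for 23 snRNP genes and above for 7, and 5 overlapped. Among all genes tested, 41.4% were below and 38.5% above in this way.

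**Figure D1:**
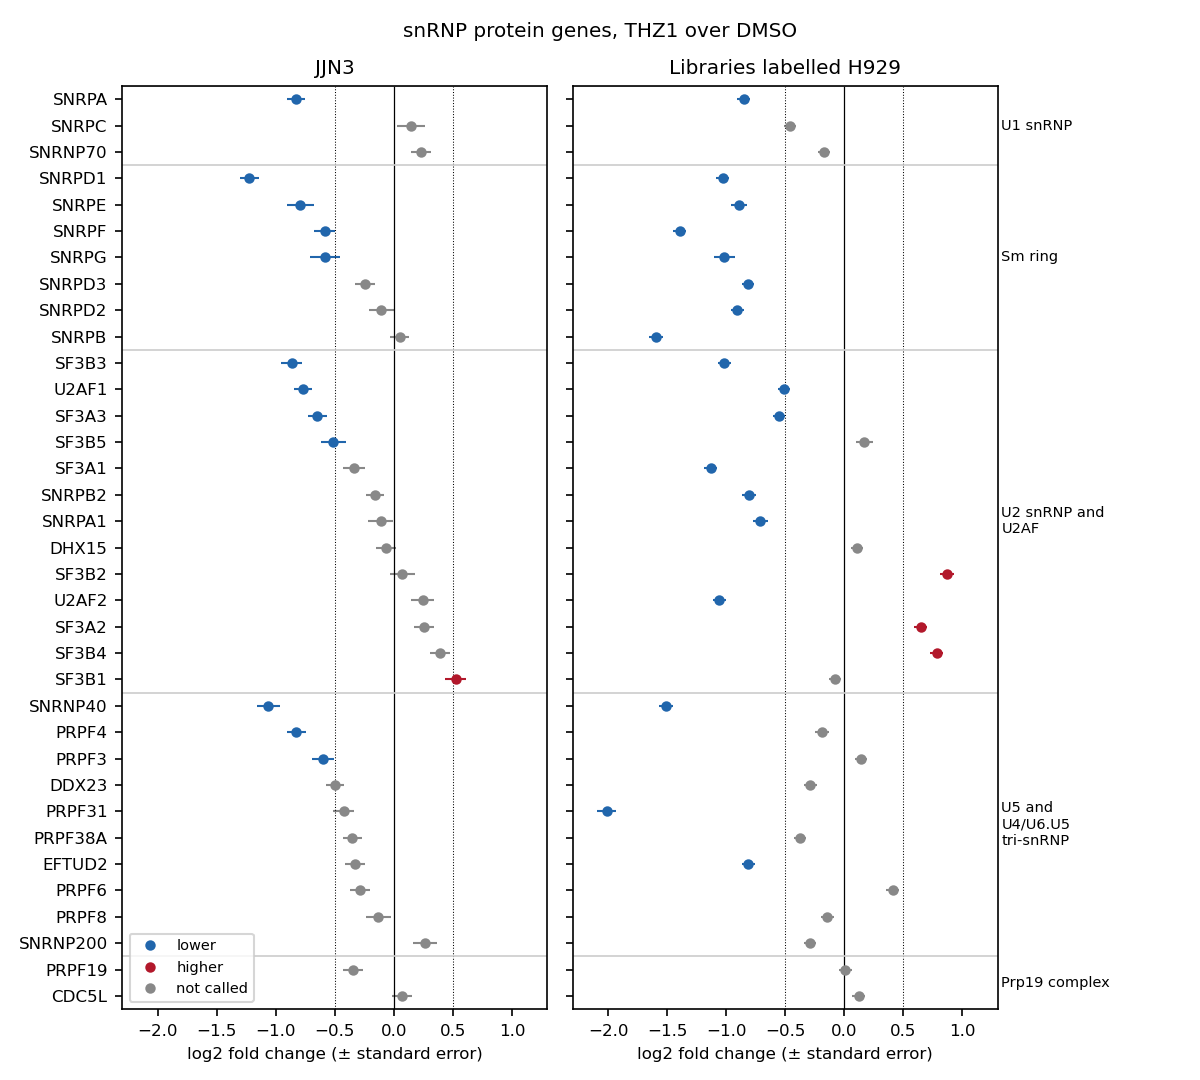
Log2 fold change of THZ1 over DMSO for each of the 35 snRNP genes (rows, grouped by snRNP), JJN3 on the left and the H929 labels on the right, with bars of 1 standard error and dotted lines at the limit of 0.5. In JJN3, 12 genes were called lower and 1 higher, and under the H929 labels 18 were called lower and 3 higher.

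The Sm ring is a heptamer that closes around the snRNA. In JJN3 4 of its 7 genes fell, where 21.3% of all genes tested were called lower. SNRPD1 (ENSG00000167088, chr18:19192275-19213485 of GRCh37, plus strand) was at 260.97 and 249.998 normalised CPM with DMSO and at 107 and 109 with THZ1. SNRPD1 thus fell 2.33-fold (log2 fold change -1.22 ± 0.08 SE, adjusted p = 1.08e-06, edgeR quasi-likelihood test), the largest fall among the snRNP genes of JJN3, and the groups were far apart. SNRPE was at 94.2 and 109 normalised CPM with DMSO and at 65.1 and 51.4 with THZ1 (log2 fold change -0.79 ± 0.12). SNRPF went from 74.9 and 72.0 to 51.7 and 45.4 normalised CPM (log2 fold change -0.58 ± 0.09). SNRPG, the lowest of the ring per kilobase of exon, went from 25.4 and 29.3 to 19.7 and 16.6 normalised CPM (log2 fold change -0.58 ± 0.13). SNRPE, SNRPF and SNRPG form one sub-complex of the ring, and in none of these genes did the groups overlap. The calls of SNRPF (-0.49) and SNRPG (-0.46) were lost without the second THZ1 library, and that of SNRPG also without the second DMSO library (-0.49). Of the 20 annotated pseudogenes of SNRPG, the counts over all libraries came to 84, or 2.06% of those on SNRPG itself, and reads shared with such copies make its values uncertain. The other ring genes were not called. SNRPB, which encodes SmB and SmB′, was at 185 and 183 normalised CPM with DMSO and at 188 in each THZ1 library. The approximate 95% interval of its log2 fold change was -0.10 to 0.20. SNRPD2 had a log2 fold change of -0.10 and SNRPD3 of -0.24.

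**Figure D2:**
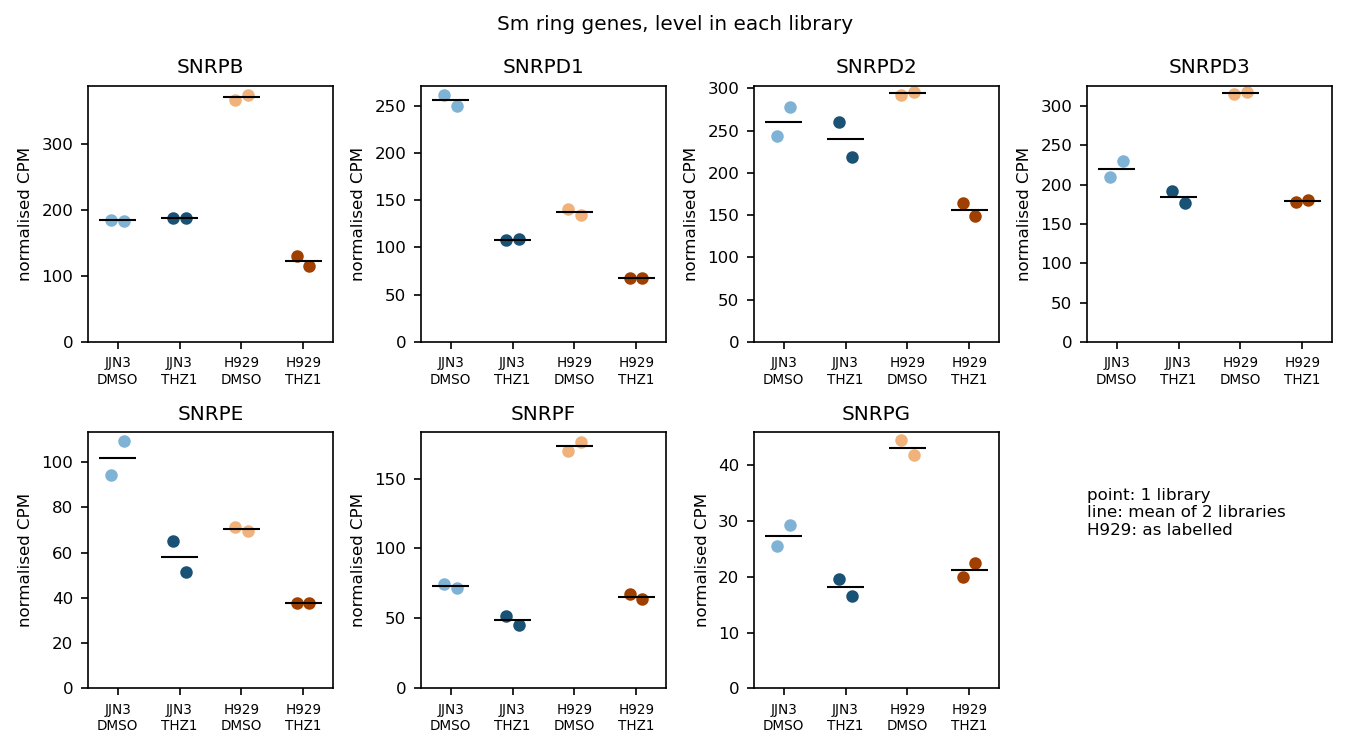
Normalised CPM (vertical axis, from 0) of the 7 Sm ring genes in each of the 8 libraries, a point per library and a line at the mean of each group of 2. SNRPD1 separates widely in JJN3 (260.97 and 249.998 against 107 and 109), SNRPB was not called there (185 and 183 against 188 in each), and all 7 are lower in the libraries labelled H929 THZ1.

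The U1 snRNP has 3 specific proteins, of which SNRPA (which binds a stem loop of U1 snRNA) fell in JJN3. SNRPA was at 147 and 148 normalised CPM with DMSO and at 85.2 and 79.1 with THZ1, a 1.78-fold fall (log2 fold change -0.83 ± 0.08 SE, adjusted p = 8.44e-06, edgeR quasi-likelihood test). SNRNP70 (U1-70K) was at 265 and 278 and then at 327 and 305 normalised CPM, a log2 fold change of 0.23, under the limit. SNRPC overlapped between the groups.

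Of the 13 genes of the U2 snRNP and U2AF, 4 fell and 1 rose in JJN3, so this group moved both ways. Of all genes tested there, 21.3% were called lower and 20.6% higher. SF3B3, a scaffold of the SF3b complex, was at 350.2 and 345 normalised CPM with DMSO and at 179 and 199 with THZ1 (log2 fold change -0.87 ± 0.09). U2AF1, which reads the AG at the 3′ splice site, went from 124 and 127 to 70.3 and 75.7 normalised CPM (log2 fold change -0.77 ± 0.08). SF3A3, of the SF3a complex, went from 375 and 384 to 240.3 and 239 normalised CPM (log2 fold change -0.65 ± 0.08). In each of these 3 genes the libraries of a group lay close together and far from the other group. SF3B5, a small SF3b protein whose gene has a single exon, was at 78.4 and 79.8 and then at 48.9 and 60.8 normalised CPM, with a log2 fold change of -0.51 ± 0.10 that just passed the limit. This call of SF3B5 was lost with DESeq2 (-0.496), with DESeq2 size factors (-0.495) and with a filter of 1 CPM in 2 libraries (-0.493). Without the first THZ1 library the log2 fold change of SF3B5 was -0.37. SF3B1, the branch point clamp that is recurrently mutated in blood cancers, was the only snRNP gene called higher. SF3B1 (ENSG00000115524, chr2:198253239-198299803 of GRCh37, minus strand) was at 425 and 437 normalised CPM with DMSO and at 616 and 609 with THZ1, a 1.44-fold rise (log2 fold change 0.52 ± 0.09, adjusted p = 0.000383, edgeR quasi-likelihood test). Its call was lost with library sizes set to total counts (log2 fold change 0.42), with no filter on low counts (0.48) and without the first DMSO library (0.49). SF3B4 was also above in both THZ1 libraries, with a log2 fold change of 0.39 that was under the limit. U2AF2, the partner of U2AF1, had a log2 fold change of 0.24.

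The U5 snRNP and the tri-snRNP gave 3 falls among 10 genes in JJN3, where 21.3% of all genes tested were called lower. SNRNP40 (ENSG00000060688, chr1:31732415-31769635 of GRCh37, minus strand), a WD-repeat protein of the U5 snRNP, was at 122 and 129 normalised CPM with DMSO and at 54.7 and 64.3 with THZ1. Its 2.09-fold fall (log2 fold change -1.06 ± 0.09 SE, adjusted p = 5.44e-06, edgeR quasi-likelihood test) was the second largest among the snRNP genes. PRPF4 and PRPF3 bind each other on the U4/U6 snRNP, and both fell. PRPF4 went from 105 and 106 to 57.5 and 60.5 normalised CPM (log2 fold change -0.82 ± 0.08). PRPF3 went from 258 and 259.9 to 184 and 154 normalised CPM (log2 fold change -0.60 ± 0.09), and its call was lost without the second THZ1 library (-0.48). The large U5 proteins at the centre of the machine were not called: the log2 fold change was -0.13 for PRPF8, the scaffold of the catalytic core, 0.26 for the helicase SNRNP200 and -0.33 for the GTPase EFTUD2. The helicase DDX23 had a log2 fold change of -0.496, just short of the limit, and DHX15, the helicase that takes spent spliceosomes apart and is listed here with the U2 proteins, had one of -0.06. DDX23 passed the limit in 5 of 11 alternatives, such as total counts (-0.60) and all 8 libraries in 1 fit (-0.51). Neither Prp19 complex gene was called in JJN3, with log2 fold changes of -0.35 for PRPF19, a ubiquitin ligase, and 0.07 for CDC5L.

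The snRNP genes lie on 15 chromosomes and span 690 bases (SF3B5) to 67114 bases (DHX15), with 1 to 44 merged exons.

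**Figure D3:**
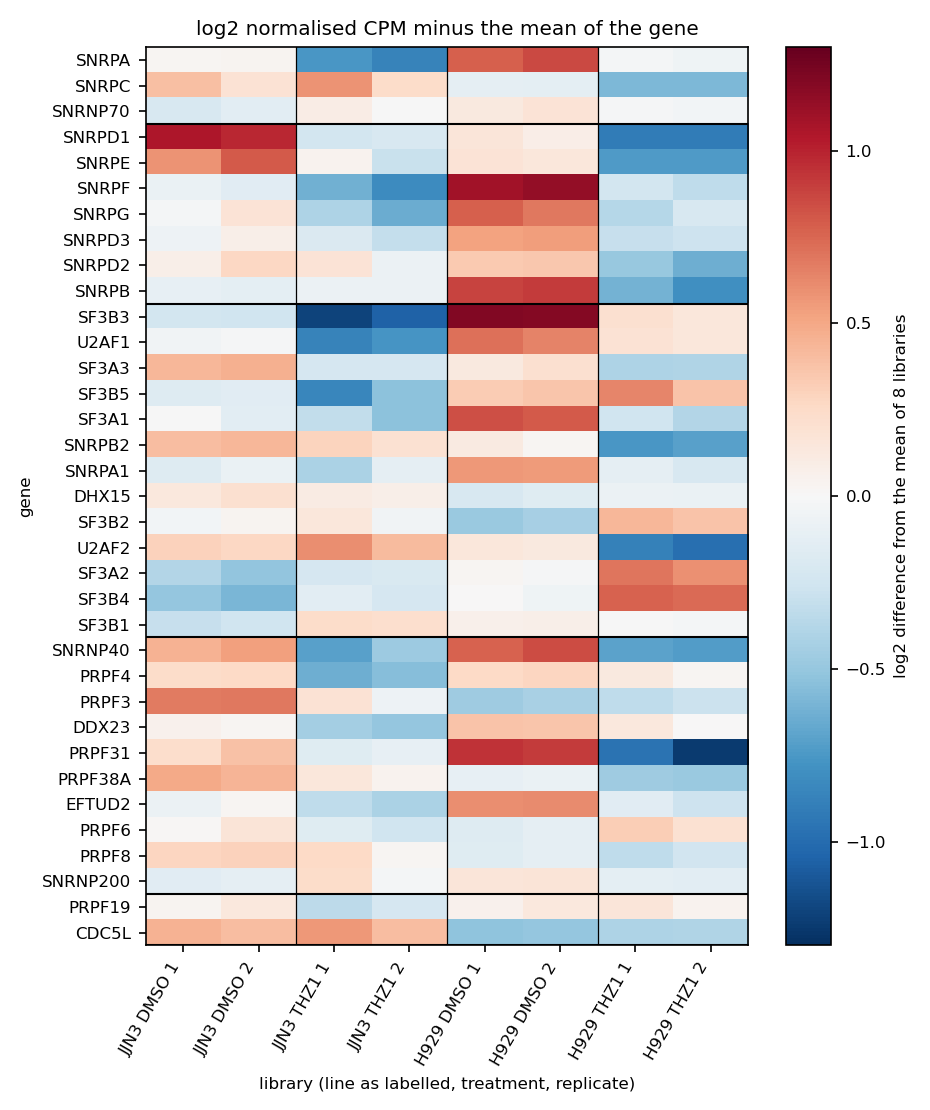
Log2 normalised CPM of each of the 35 snRNP genes (rows, grouped by snRNP) minus that gene's mean over the 8 libraries (columns), red above and blue below the mean. JJN3 is bluer with THZ1 than with DMSO for SNRPA, SF3B3, U2AF1 and SNRNP40 while SF3B1 goes from blue to red, and under the H929 labels U2AF2 and PRPF31 are bluest and SF3B4 reddest with THZ1.

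In the libraries labelled H929, 18 of the 35 snRNP genes were lower with THZ1 than with DMSO and 3 were higher. Among the 14863 genes tested there, 32.6% were lower and 33.1% higher, against 51.4% and 8.57% of the snRNP genes, whose median log2 fold change was -0.51. Without the second DMSO library, which carried traces of kappa and FGFR3 counts, 17 were lower and 3 higher. All 7 Sm ring genes were lower, with log2 fold changes from -1.60 to -0.81. Because these libraries differ in light chain and translocation genes, the part of the treatment in these values cannot be told apart from that of the cells. Both THZ1 libraries were below both DMSO libraries for 26 snRNP genes and above for 8, where 45.5% of all genes tested were below and 45.5% above.

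PRPF31 (ENSG00000105618, chr19:54618790-54635150 of GRCh37, plus strand), which holds the U4/U6 and U5 snRNPs together, was at 98.7 and 96.9 normalised CPM in the H929 DMSO libraries and at 26.6 and 21.8 in the THZ1 libraries. This 4.03-fold difference (log2 fold change -2.01 ± 0.08 SE, adjusted p = 1.99e-12, edgeR quasi-likelihood test) was the largest of the snRNP genes under these labels. The files list PRPF31 under 10 IDs, and the 9 not used here had 0 counts. Whether reads that map equally well to further copies were lost was not tested. In JJN3 the same gene went from 60.4 and 67.2 to 46.2 and 47.8 normalised CPM and was not called (log2 fold change -0.42). There it passed the limit with total counts (-0.53) and without the first DMSO library (-0.52). SNRPB was at 367 and 375 normalised CPM in the H929 DMSO libraries and at 129.6 and 115 in the THZ1 libraries (log2 fold change -1.60 ± 0.06). SNRPB and PRPF31 were thus lowest of all 4 groups in the libraries labelled H929 THZ1. SNRNP40 was at 152 and 161 and at 55.1 and 54.1 normalised CPM (log2 fold change -1.51 ± 0.06), and its THZ1 levels in both lines lay close together, from 54.1 to 64.3.

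The 3 snRNP genes that were higher with THZ1 under the H929 labels all belong to the U2 snRNP. SF3B2, of the SF3b complex, was at 741 and 764 normalised CPM with DMSO and at 1397 and 1339.6 with THZ1 (log2 fold change 0.87 ± 0.06). SF3B4 was at 341 and 327 and at 578 and 566 normalised CPM (log2 fold change 0.78 ± 0.05). SF3A2, of the SF3a complex, was at 289 and 280.5 and at 459.8 and 428 normalised CPM (log2 fold change 0.65 ± 0.05). None was called in JJN3, where SF3B2 overlapped between the groups. Their SF3a and SF3b partners SF3A1, SF3A3 and SF3B3 were lower under the H929 labels, with log2 fold changes of -1.13, -0.55 and -1.01. The smallest of the falls called there, that of U2AF1 at -0.51, was lost with DESeq2 (-0.49) and with total counts (-0.46). It was also lost with DESeq2 size factors (-0.49) and without the first DMSO (-0.49) or the second THZ1 library (-0.48). The call of SF3A3 was lost without the second DMSO library (-0.498).

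The within-line comparisons share no library, and 9 snRNP genes were called lower in both: SNRPA, SNRPD1, SNRPE, SNRPF, SNRPG, SF3A3, SF3B3, U2AF1 and SNRNP40. These are 9 of the 12 called lower in JJN3 and 9 of the 18 under the H929 labels. The calls of SNRPF and SNRPG in JJN3 and of U2AF1 and SF3A3 under the H929 labels were lost in some alternatives. They make up 25.7% of the snRNP genes, against 10.1% of the 12787 genes that both comparisons tested. SF3B5, PRPF3 and PRPF4 (8.57% of the snRNP genes, against 7.7% of all) were called lower in JJN3 and not called under the H929 labels. The reverse held for 9 others (25.7%, against 16.9% of all), and 10 genes were called in neither (28.6%, against 23.2% of all). The 3 and the 9 passed the test of the difference in response, except EFTUD2 (0.47, under the limit). That test uses the same libraries as the calls that picked these genes, so it gives no independent evidence of a difference. No snRNP gene was called in opposite directions, where 8.78% of all were.

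The difference in response was tested as an interaction, JJN3 minus the H929 labels, and 17 snRNP genes differed. That is 48.6% of them, no more than the 53.7% of all genes tested that differed in either direction. Of these 17, 12 had a higher and 5 a lower log2 fold change in JJN3, where 25.5% and 28.1% of the 16122 genes tested did. The largest differences in log2 fold change were 1.64 ± 0.10 (SE) for SNRPB, 1.58 ± 0.13 for PRPF31 and 1.29 ± 0.11 for U2AF2, with adjusted p of 8.84e-10, 2.64e-08 and 3.28e-08 (edgeR quasi-likelihood test). On the other side stood SF3B2 at -0.80 and PRPF3 at -0.75. With total counts in place of TMM the split was 6 higher and 8 lower, and the median of all genes tested in this contrast moved to -0.18, so the balance of directions rests on the scaling. Of the 9 genes called lower in both lines, SNRPF had a called difference of 0.80, its fall being deeper under the H929 labels. The other 8 were not called, from -0.27 for U2AF1 to 0.44 for SNRNP40, and 3 of them (U2AF1, SNRPG and SNRNP40) had an adjusted p under 0.05 with a difference under the limit.

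Between the DMSO libraries, JJN3 had less mRNA than those labelled H929 for 13 snRNP genes and more for 5, against 30.8% and 30.7% of all genes tested. SF3B3 was 948 and 944 normalised CPM in the H929 DMSO libraries, far above JJN3 (log2 difference -1.44 ± 0.07 SE), and PRPF3 was higher in JJN3 (1.122 ± 0.08). Between the THZ1 libraries, 8 were lower and 10 higher in JJN3, against 31.6% and 32.3% of all genes tested. These contrasts use the same libraries as the comparisons within the lines and give no independent evidence on them.

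Other spliceosome genes were listed apart from the snRNP genes. Of 102 listed, 100 were tested, and in JJN3 31 were lower and 6 higher with a median log2 fold change of -0.23, where 21.3% of all genes tested were lower and 20.6% higher. Under the H929 labels 43 were lower and 14 higher, with a median of -0.40, where 32.6% of all were lower and 33.1% higher. Of the genes that assemble and import snRNPs, 11 of 17 were lower in JJN3 and none higher, with a median log2 fold change of -0.65. Assembly starts in the cytoplasm, where the methylosome modifies Sm proteins and the SMN complex loads them onto snRNA. Of 8 listed partners of SMN in that complex, 7 were called lower in JJN3: GEMIN7 at -1.31, GEMIN6 at -1.17, GEMIN2 at -0.98, GEMIN4 at -0.91, GEMIN8 at -0.81, and DDX20 and GEMIN5 at -0.75 each in log2 fold change. STRAP, the remaining partner, was at 0.08. PRMT5 and WDR77, the methylosome enzyme and its cofactor, were at -0.65 and -0.62, and the import adaptor SNUPN was at -0.93, all called lower, as was COIL, the coilin of Cajal bodies, at -0.58. SMN1 and SMN2 were not called (-0.31 and -0.23), and their near-identical sequences share reads. Nor were CLNS1A (-0.36), PHAX (-0.24) and TGS1 (-0.09) of the same list called in JJN3. Under the H929 labels 11 of the 17 were lower and 2 higher, CLNS1A being lowest at -1.89, followed by GEMIN5 at -1.56, while DDX20 was higher at 0.73.

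Beyond the assembly genes, the largest fall in JJN3 was that of YJU2 (CCDC94 in the files), a factor of the first catalytic step, at a log2 fold change of -1.66 with 143 and 177 counts left in the THZ1 libraries against 570 and 585. LSM2, of the ring around U6 snRNA, was at -1.25. The largest rises called were RNPC3, a protein of the minor spliceosome, at 1.47, and the helicase DDX39B at 1.24. The helper of the second step CDC40 at 0.72 and SRRM2, a large protein of nuclear speckles, at 0.68 followed. Under the H929 labels U2SURP (-1.27) and YJU2 (-1.07) followed CLNS1A and GEMIN5, and PPIE (1.77), ESS2 (1.67), CWC15 (1.14) and DDX39B (1.08) were highest. LSM2 and DDX39B have further IDs on alternative sequences of the MHC region, to which reads may be lost.

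**Figure D4:**
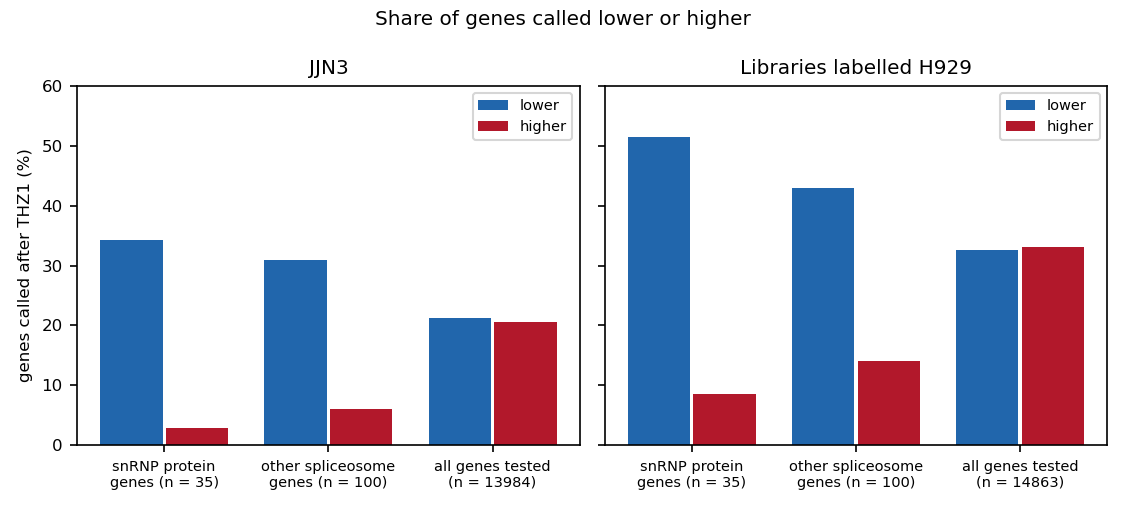
Percentage of genes called lower (blue) and higher (red) with THZ1 among the 35 snRNP genes, 100 other spliceosome genes and all genes tested, JJN3 on the left and the H929 labels on the right. In JJN3 the snRNP genes reach 34.3% lower and 2.86% higher against 21.3% and 20.6% of all genes.

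The snRNAs themselves could not be followed. The 13 major and minor snRNA genes found in the files had at most 14 counts in a library, that of RNU5A-1 in JJN3 with THZ1.

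Promoters are shown for the 3 genes with the largest mean fall among the 9 called lower in both comparisons that had a usable entry in RefSeq (GRCh38.p14, not the hg19 build of the counts). A usable entry is one that starts within 50 bases of the 5′ end of the gene, as 29 of the 35 snRNP genes had. Each line gives the 250 bases before the start, on the strand of the gene. They lie at chr1:31296789-31297038 (minus strand) for SNRNP40, at chr12:95858702-95858951 (plus strand) for SNRPF and at chr19:40750953-40751202 (plus strand) for SNRPA. Capitals mark matches, on either strand, to CCAAT and to GGGCGG, the core of the GC box.
SNRNP40: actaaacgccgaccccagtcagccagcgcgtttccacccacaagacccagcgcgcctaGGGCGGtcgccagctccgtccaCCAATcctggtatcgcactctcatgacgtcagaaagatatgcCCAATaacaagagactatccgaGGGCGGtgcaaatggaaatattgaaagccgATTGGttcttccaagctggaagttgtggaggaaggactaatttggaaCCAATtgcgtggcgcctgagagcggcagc
SNRPF: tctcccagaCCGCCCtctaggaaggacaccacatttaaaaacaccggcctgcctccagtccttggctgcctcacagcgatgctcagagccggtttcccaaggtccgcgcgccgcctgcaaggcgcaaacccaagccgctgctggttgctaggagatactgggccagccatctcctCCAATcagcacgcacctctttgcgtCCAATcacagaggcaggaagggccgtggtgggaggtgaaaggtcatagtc
SNRPA: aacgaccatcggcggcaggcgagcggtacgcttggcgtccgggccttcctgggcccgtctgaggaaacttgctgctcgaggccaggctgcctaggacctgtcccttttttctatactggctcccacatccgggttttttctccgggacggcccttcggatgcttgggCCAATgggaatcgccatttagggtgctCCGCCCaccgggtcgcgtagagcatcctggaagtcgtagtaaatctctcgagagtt

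Over windows of 250 bases before to 50 after the start, 6 motifs were searched on both strands. CCGGAAG, an ETS-type sequence, was found in 13 of the 29 snRNP promoters (44.8%), in 10.7% of all 24408 promoters and in 20.8% of the 7795 promoters of genes tested in JJN3. Of the 9 genes lower in both comparisons, 5 had a usable entry, and of these SF3A3 held it. TGCGCA and CACGTG read the same on both strands. GGGCGG was found in 72.4% of the snRNP promoters and in 70.6% of those of tested genes, CCAAT in 44.8% and 38.3%, TGCGCA in 20.7% and 14.8%, and CACGTG in 3.45% and 10.5%. TATAAA was found in 1 snRNP promoter, that of SNRPC, and in 5.44% of those of tested genes. Matches describe the letters of these windows and are not binding sites.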

How the data were processed

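RNA-seq was analysed from the gene counts that the authors deposited for 8 libraries of JJN3 and H929 (single-end reads on an Illumina instrument). The authors aligned reads to hg19 with STAR 2.5.2a, kept uniquely mapping reads and counted them per Ensembl gene with featureCounts, so the deposited values are raw counts. The strand setting is not given in the sources used here, and reads of overlapping or antisense genes cannot be told apart. The authors also deposited DESeq2 1.12.4 results per line that hold the mean normalized signal, log2 fold change, standard error, test statistic (a score), p-value and adjusted p-value. Those values were not used, and the JJN3 table served only to pair IDs with symbols, the ID with most counts being kept.

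Genes were tested with edgeR 4.0.16 in R 4.3.3 (TMM, filterByExpr, quasi-likelihood test, Benjamini-Hochberg adjustment over all genes tested), within each line and, for contrasts between lines, over all 8 libraries. Calls used the limits of the study, an adjusted p below 0.05 with a log2 fold change of more than 0.5 in size. Normalised CPM used TMM factors of all 8 libraries. Alternatives were DESeq2 1.42.0, its size factors, total counts, no filter, 1 CPM in 2 libraries, all libraries in 1 fit, leaving out single libraries, blocking on the replicate number, and no limit or a limit of 1 on the log2 fold change. Scripts were tested on simulated data. Gene structure came from GENCODE lifted to GRCh37. Values in every library were given for snRNP genes called in JJN3 and for the 3 largest falls and rises under the H929 labels. Of the other spliceosome genes, the 4 largest falls and rises were named where the average log2 CPM reached 3. Genes of snRNP assembly and import were named after their values were seen. The snRNP genes and all lists were chosen with earlier results of these data known. Intervals cover 95%.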

Additional observations from a re-analysis of the deposited data

Results flagged for a closer look

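The response to THZ1 differed between JJN3 and the libraries labelled H929 for 17 snRNP genes, by the interaction term of the edgeR quasi-likelihood test over all 8 libraries. These are 48.6% of the snRNP genes, and 53.7% of all genes tested differed. The values are differences in log2 fold change, JJN3 minus the H929 labels. In the Sm ring they were 1.64 for SNRPB, 0.80 for SNRPF, 0.79 for SNRPD2 and 0.56 for SNRPD3. SNRPF was called lower in both lines, and SNRPB, SNRPD2 and SNRPD3 were called lower only under the H929 labels. Among U1 and U2 proteins they were 0.60 for SNRPC, 0.59 for SNRPA1, 0.64 for SNRPB2, 0.79 for SF3A1, 0.60 for SF3B1 and 1.29 for U2AF2, against -0.80 for SF3B2 and -0.69 for SF3B5. In the tri-snRNP they were 1.58 for PRPF31 and 0.54 for SNRNP200, against -0.71 for PRPF6, -0.75 for PRPF3 and -0.65 for PRPF4. Since the H929 libraries differ in light chain genes between the treatments, a difference in response and a difference in the cells cannot be told apart.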

How the results depend on the processing

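With no limit on the log2 fold change, JJN3 had 20 snRNP genes lower and 6 higher and 51 other spliceosome genes lower and 15 higher, where 30.1% of all genes were lower and 28.9% higher. Under the H929 labels 32 snRNP genes were then called, 7 of them higher, and 25 other genes were higher. Of all genes there, 40.9% were lower and 41% higher. For the difference in response 25 were called, 9 of them lower, where 32.3% of all were lower and 29.7% higher. Between the lines 12 of 31 called were higher in DMSO (37.4% of all lower, 37.7% higher). In THZ1 16 of 28 called were higher (38% of all lower, 38.6% higher). Beyond a log2 fold change of 1, the counts (lower, higher) were 2 and 0 in JJN3 and 9 and 0 under the H929 labels for snRNP genes, and 5 and 2, and 7 and 5, for other spliceosome genes. Of all genes, 7.19% and 9.99% passed in JJN3 and 21.2% and 23.6% under the H929 labels. They were 0 and 3 for the difference in response (19.7% and 18.1% of all genes), 3 and 1 for DMSO (21.1% and 21.2%) and 2 and 2 for THZ1 (22.3% and 22.7%). SF3B1 was no longer called higher in JJN3, leaving 0, with total counts and with no filter. Total counts moved the median of all genes in JJN3 to -0.10 and gave 8 lower and 6 higher differences in response. Total counts also turned SNRPB (-0.055), SF3B2 (-0.032) and CDC5L (-0.032), none of them called, and the cause was not tested.

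Leaving out each library in turn gave 9 to 13 snRNP genes lower and 0 to 1 higher in JJN3, and 17 to 18 lower and 3 higher under the H929 labels. Other spliceosome genes gave 29 to 34 lower and 5 to 11 higher in JJN3, with 11 when the second THZ1 library was left out. Without that library the calls of SNRPF (-0.49), SNRPG (-0.46) and PRPF3 (-0.48) were lost in JJN3. Uncalled genes near 0 changed sign in JJN3 (SNRPC from -0.037 to 0.31, SNRPA1 from -0.27 to 0.028, SF3B2 from -0.028 to 0.17, CDC5L from -0.0076 to 0.15, SNRPD2 from -0.23 to 0.016) and under the H929 labels (PRPF19 from -0.038 to 0.076), as lowest to highest values. A lone library is assumed to vary like the others. With the replicate number as a block, the snRNP counts were 12 lower and 1 higher in JJN3, 18 and 3 under the H929 labels, and 5 and 12 for the difference in response. The numbers are not shown to pair the samples, the correlation of deviations being 0.0096 in JJN3 and -0.030 under the H929 labels. With 2 libraries per group, the test rests on a spread pooled over genes.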
